A study of Mus musculus with 6 samples.

Results

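The ATM and ATR checkpoint genes were followed as 10 genes chosen by symbol: the kinase genes Atm and Atr, the genes for the ATR partners Atrip and Topbp1, the effector kinase genes Chek1 and Chek2, the clamp genes Rad1 and Hus1, and the chromatin genes H2afx and Mdc1. All 10 were found, each as 1 Ensembl identifier carrying that symbol in GENCODE vM21, among the 49584 identifiers of the deposited table, and all 10 were among the 13474 genes tested. Transcripts had been counted in 6 libraries made by Smart-seq2, a full-length cDNA method, from spermatocytes in leptotene or zygotene, the opening stages of meiotic prophase, which were isolated by flow cytometry from mice at postnatal day 12. Libraries 1 to 3 of the genotype Srp68 SKO were set against libraries 1 to 3 of wild type mice. The product of Srp68 belongs to the signal recognition particle, which brings ribosomes that are making secreted or membrane proteins to the endoplasmic reticulum. The meaning of the S in SKO, the deleted exons, any Cre driver and the strain were not stated in the labels. The labels also leave unsaid whether each library came from its own animal, so the p-values measure only how these samples vary, and that variation may be technical.

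ATM and ATR are large protein kinases that sense damaged DNA. ATM is activated at double-strand breaks and passes the signal to the kinase CHK2, whereas ATR, held on single-stranded DNA by ATRIP, is switched on by TOPBP1 next to the RAD9-RAD1-HUS1 clamp and passes the signal to CHK1. Both kinases phosphorylate the histone H2AX, encoded by H2afx, and the modified histone is bound by MDC1, which spreads the mark along chromatin. In spermatocytes the breaks are made on purpose, by SPO11, to start recombination, and ATR, TOPBP1, H2AX and MDC1 later take part in silencing the unpaired X and Y chromosomes.

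Library totals ran from 11853738 to 12728853 counts in SKO and from 14254224 to 15381473 counts in wild type (two-sided exact permutation p = 0.1, the smallest that 3 against 3 allows). At that depth 3 counts corresponded to 0.174 to 0.289 CPM, the count scaled to a common sequencing depth, here with TMM factors. Srp68 itself had 147, 70 and 72 counts in SKO libraries 1 to 3, against 337, 505 and 345 in wild type libraries 1 to 3. Its log2 fold change was −1.52 (SE 0.28; edgeR adjusted p = 0.00107) and every SKO library lay below every wild type library. The leptotene and zygotene markers Sycp3, Sycp1, Dmc1, Meiob, Prdm9, Hormad1 and Spo11 were all detected and summed to 21772 to 29117 CPM in SKO and 13426 to 16734 CPM in wild type. Of these, 5 were higher in SKO, Meiob did not pass (log2 fold change −0.08) and Spo11 was lower (−0.36, edgeR adjusted p = 0.0189). Of all tested genes 14.1% were higher and 14.4% lower. The most abundant markers, Sycp3, Sycp1 and Hormad1, had transcript GC contents of 34.3%, 34.6% and 35.8%. The median of all tested genes was 48.7%. With a correction for GC content and length, described below, Hormad1 had no call (0.03, edgeR adjusted p = 0.836). Values of the other markers with that correction are not given. Markers of somatic and erythroid cells (20 of 23 with any count) summed to 48.2 to 141 CPM in SKO and 15.1 to 124 CPM in wild type, and Cyp17a1, Cyp11a1 and Alas2 had 0 counts. The erythroid markers alone summed to 27.1 to 117 CPM in SKO and 2.38 to 105 CPM in wild type. The myoid markers summed to 4.44 to 13.3 CPM in SKO and 1.04 to 2.36 CPM in wild type. Of them Acta2 was higher in SKO (log2 fold change 2.25, edgeR adjusted p = 0.00763). No other tested somatic or erythroid marker passed. The pachytene markers Ldhc, Piwil1, Pgk2, Adam3 and Tbpl1, which mark the next stage, summed to 279 to 307 CPM in SKO and 382 to 423 CPM in wild type, mostly from Tbpl1 (log2 fold change −0.28). Without Tbpl1 they summed to 10.9 to 16.2 CPM in SKO and 52.1 to 71.9 CPM in wild type, with Ldhc at −2.13 (edgeR adjusted p = 9.95e-06) and Piwil1 at −2.003 (edgeR adjusted p = 0.00697). Stra8, a gene of meiotic entry listed with the differentiating spermatogonia, stood at 486 CPM in SKO and 99.9 CPM in wild type (log2 fold change 2.28), while the other 3 genes of that list, Kit, Dmrtb1 and Sohlh1, did not pass and summed to 56.5 to 87.2 CPM in SKO and 73.7 to 87.6 CPM in wild type. The part that stage composition has in the differences given here was not tested, and in bulk samples fewer cells of a type and less RNA per cell cannot be told apart.

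Of the 10 checkpoint genes, 5 were higher in SKO spermatocytes, 2 were lower and 3 did not pass, at an adjusted p under 0.05 in edgeR's quasi-likelihood test. Across all tested genes 28.5% passed, 14.1% as higher and 14.4% as lower. The 5 higher genes were Atm, Atr, Atrip, Topbp1 and Chek1, which include both apical kinases. The Atr call did not hold with the correction for GC content and length described below (−0.024, edgeR adjusted p = 0.882). The 2 lower genes were H2afx and Rad1. Chek2, Hus1 and Mdc1 did not pass. The median log2 fold change of the 10 genes was 0.41, beside −0.03 for all tested genes, both without the GC content and length correction. In 5 genes every SKO library lay above every wild type library, and in 2 every SKO library lay below, where 43.8% of all tested genes were separated, 21.6% upward and 22.2% downward.

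**Figure D1:**
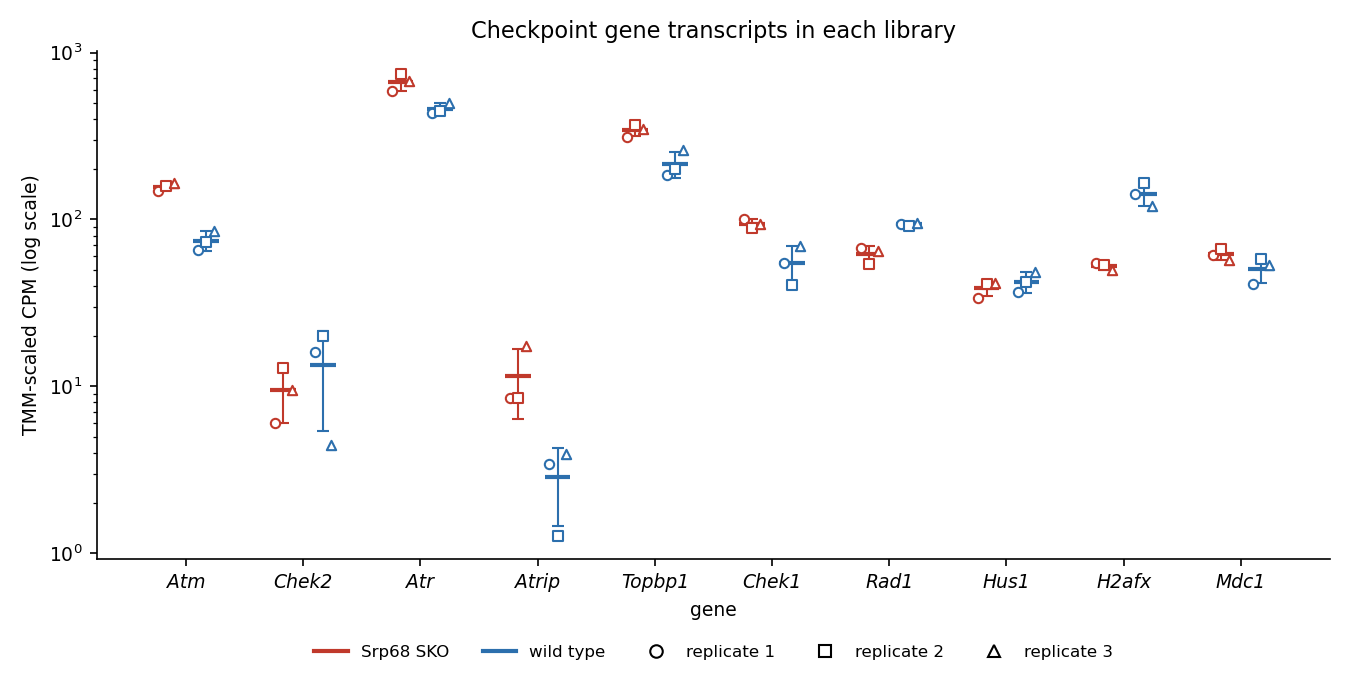
TMM-scaled CPM (log axis) of the 10 checkpoint genes in each library, with Srp68 SKO in red to the left of wild type in blue; symbols are libraries, and bars are the mean ± SD of 3 libraries. The 2 genotypes are separate for Atm, Atr, Atrip, Topbp1, Chek1, Rad1 and H2afx and overlap for Chek2, Hus1 and Mdc1.

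In the ATM arm the kinase gene rose while the gene of its effector did not pass. Atm (ENSMUSG00000034218; GRCm38 chromosome 9, 53439149 to 53536740, minus strand) had 149, 159 and 165 CPM in SKO libraries 1 to 3, against 65.2, 73.0 and 85.5 CPM in wild type libraries 1 to 3. Every SKO library stood well above the highest wild type library. The means were 157 ± 8.00 CPM in SKO and 74.6 ± 10.3 CPM in wild type (SD, n = 3 each), a 2.11-fold increase with a log2 fold change of 1.08 (95% interval 0.80 to 1.35; edgeR adjusted p = 4.08e-05). Atm stood at 0.78 (edgeR adjusted p = 0.000203) with the GC content and length correction. It stood at 0.64 (edgeR adjusted p = 0.000683) with both taken from the longest coding transcript. Chek2 (chromosome 5, 110839979 to 110874145, plus strand), the gene for the effector kinase CHK2, had 6.01, 12.8 and 9.53 CPM in SKO libraries, against 16.0, 19.9 and 4.45 CPM in wild type libraries. The genotypes overlapped, because wild type replicate 3 held the lowest value of all 6 libraries while the other two wild type libraries held the highest. Its log2 fold change of −0.51 had a 95% interval from −1.47 to 0.44 (edgeR adjusted p = 0.43), which leaves room for a change of either sign. As each library was left out in turn it ranged from −0.93 (edgeR adjusted p = 0.053, without wild type replicate 3) to −0.12 (edgeR adjusted p = 0.903, without wild type replicate 2).

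In the ATR arm the kinase gene and the genes of 3 partners rose. Atr (ENSMUSG00000032409; chromosome 9, 95857597 to 95951781, plus strand) had 587, 739.9 and 678 CPM in SKO libraries, against 434, 447 and 499.6 CPM in wild type libraries. It had the highest CPM of the 10 genes in both genotypes, and its groups did not overlap. The means were 668 ± 77.1 CPM in SKO and 460.4 ± 34.6 CPM in wild type (SD, n = 3 each; log2 fold change 0.54, 95% interval 0.31 to 0.77; edgeR adjusted p = 0.00191). This call did not survive a correction for transcript GC content and length: with each library's trend on these removed, Atr stood at −0.024 (adjusted p = 0.882). The annotated exons of Atr cover 23629 bases, while its longest coding transcript has 8102. With GC content and length taken from that transcript instead, Atr stood at 0.04 (adjusted p = 0.779). Reads could be shared with annotated genes over 5.78% of its exon bases, where the antisense gene 1700065D16Rik held 358 counts in SKO and 338 in wild type, while Atr held 22123 in SKO and 22092 in wild type.

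Atrip (ENSMUSG00000025646; chromosome 9, 109057933 to 109074124, minus strand), whose product holds ATR on single-stranded DNA, had the largest fold change of the 10 and was one of the least abundant. It had 104, 92 and 182 counts in SKO libraries, against 53, 22 and 60 in wild type libraries. In CPM these were 8.56, 8.56 and 17.5 in SKO, against 3.42, 1.27 and 3.93 in wild type. The groups were separate, and SKO replicate 3 stood well above the other two SKO libraries. The log2 fold change was 2.01 (95% interval 1.04 to 2.97; edgeR adjusted p = 0.00419), and 1.58 without SKO replicate 3 (adjusted p = 0.0367). Atrip shares 16.0% of its exon bases with Trex1, a nuclease gene whose exons lie wholly within it and which has 0 counts in all 6 libraries, so reads from the 2 genes may not be told apart.

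Topbp1 (ENSMUSG00000032555; chromosome 9, 103305215 to 103350428, plus strand), the direct activator of ATR, had 314, 365 and 348 CPM in SKO libraries, against 185, 201 and 260.3 CPM in wild type libraries. All 3 SKO libraries were higher than all 3 wild type libraries, of which replicate 3 was the closest. The means were 342 ± 26.4 CPM in SKO and 216 ± 39.5 CPM in wild type (SD, n = 3 each; log2 fold change 0.67, 95% interval 0.39 to 0.94; edgeR adjusted p = 0.00144). Chek1 (ENSMUSG00000032113; chromosome 9, 36708482 to 36727065, minus strand), the gene for the ATR effector CHK1, had 101, 88.4 and 93.5 CPM in SKO libraries, against 54.9, 40.3 and 69.5 CPM in wild type libraries. The SKO libraries lay close together and above a wider wild type group. The log2 fold change was 0.78 (95% interval 0.41 to 1.16; edgeR adjusted p = 0.00413). Per kilobase of coding transcript, the ratio of Chek1 to Chek2 was 10.1, 4.13 and 5.89 in SKO libraries, against 2.05, 1.21 and 9.35 in wild type libraries, and the groups overlapped.

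The upstream sequences of the members were read for motifs because several members rose together. RefSeq's GRCm38.p6 promoter table held 9 of the 10 genes. The 250 bases before the RefSeq start were searched on both strands for 2 motifs. These were CNCCTCAG, a motif bound by STRA8, a transcription factor of meiotic entry, and TTTNNCGC, a loose form of the E2F site. For Atm and Topbp1 the RefSeq start lies inside the GENCODE gene given above, so part of each printed stretch does too. Of the genes that rose, the 2 with a match are shown beside Atm, which has none, with matched bases in capitals, 5′ to 3′ on the gene's strand: Atm (chr9:53536672-53536921, minus strand), Atrip (chr9:109074125-109074374, minus strand) and Topbp1 (chr9:103305077-103305326, plus strand).
Atm: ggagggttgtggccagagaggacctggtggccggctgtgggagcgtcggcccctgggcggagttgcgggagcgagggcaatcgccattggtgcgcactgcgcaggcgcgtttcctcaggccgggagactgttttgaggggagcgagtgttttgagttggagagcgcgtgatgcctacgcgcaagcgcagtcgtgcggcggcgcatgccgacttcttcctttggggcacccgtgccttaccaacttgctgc
Atrip: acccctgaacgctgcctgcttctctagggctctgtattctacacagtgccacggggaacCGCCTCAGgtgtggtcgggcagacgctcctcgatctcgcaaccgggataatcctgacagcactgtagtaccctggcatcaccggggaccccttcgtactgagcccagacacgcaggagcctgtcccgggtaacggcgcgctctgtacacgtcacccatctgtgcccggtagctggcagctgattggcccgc
Topbp1: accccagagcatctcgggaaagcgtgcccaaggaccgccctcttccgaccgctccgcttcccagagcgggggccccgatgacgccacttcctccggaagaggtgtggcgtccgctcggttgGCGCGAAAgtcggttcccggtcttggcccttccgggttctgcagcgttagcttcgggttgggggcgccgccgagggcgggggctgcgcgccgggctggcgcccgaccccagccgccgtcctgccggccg
Among the 9 genes the first motif was found in Atrip alone, starting 191 bases before the start, and 6.42% of all 32851 promoters in the table hold it. The second was found in Topbp1, Chek2 and Mdc1, and 4.28% of all promoters hold it. Of these 3 genes, 1 rose and 2 did not pass. No promoter of the 9 genes held both motifs, and a match describes the letters only.

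The clamp genes went lower or did not pass. Rad1 (ENSMUSG00000022248; chromosome 15, 10486018 to 10499063, plus strand), which encodes the subunit shared by the canonical and germline forms of the clamp, had 67.7, 54.3 and 64.6 CPM in SKO libraries, against 93.3, 91.6 and 95.3 CPM in wild type libraries. The wild type libraries were nearly identical and all lay above the SKO libraries. The means were 62.2 ± 7.04 CPM in SKO and 93.4 ± 1.83 CPM in wild type (SD, n = 3 each; log2 fold change −0.59, 95% interval −0.87 to −0.30; edgeR adjusted p = 0.00423). Hus1 (chromosome 11, 8993137 to 9011191, minus strand), another subunit of the clamp, had 33.9, 40.9 and 41.9 CPM in SKO libraries, against 36.5, 42.1 and 48.3 CPM in wild type libraries. The groups overlapped (log2 fold change −0.12, 95% interval −0.49 to 0.24; edgeR adjusted p = 0.64), and the interval leaves out a change of 2-fold in either direction.

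The clamp has paralogs that are prominent in germ cells, and these were read from the partner lists. The canonical subunit gene Rad9a had 18 counts in the SKO libraries and 51 in the wild type libraries in sum, below the filter for testing. Its paralog Rad9b had 85.4 ± 6.60 CPM in SKO and 116 ± 7.98 CPM in wild type (SD, n = 3 each), and fell (log2 fold change −0.44; edgeR adjusted p = 0.0153). Rad9b shares 23.2% of its exon bases with Pptc7 on the opposite strand, so part of that signal is uncertain. Hus1b, the paralog of Hus1, had 36.9 ± 3.11 CPM in SKO and 41.3 ± 9.81 CPM in wild type and did not pass (log2 fold change −0.16; edgeR adjusted p = 0.573). Per kilobase of coding transcript, Hus1b stood at 31.1 CPM in SKO and 34.8 CPM in wild type, above Hus1 at 8.38 CPM in SKO and 9.12 CPM in wild type, and the ratio of Hus1 to Hus1b was 0.214 to 0.306 in SKO libraries and 0.216 to 0.305 in wild type libraries.

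The histone gene showed the change with the smallest p of the 10. H2afx (ENSMUSG00000049932; chromosome 9, 44334694 to 44336077, plus strand) had 54.5, 53.3 and 49.7 CPM in SKO libraries, against 142, 165 and 120.3 CPM in wild type libraries. The SKO libraries lay close together, far below all wild type libraries. The means were 52.5 ± 2.52 CPM in SKO and 142 ± 22.2 CPM in wild type (SD, n = 3 each), so that SKO held 36.8% of the wild type mean (log2 fold change −1.44, 95% interval −1.74 to −1.14; edgeR adjusted p = 8.36e-06). With the GC content and length correction H2afx stood at −0.84 (adjusted p = 0.000232), and at −0.61 (adjusted p = 0.00323) with both taken from the longest coding transcript, so the size of this decrease moved by more than 1.5 times while its call held. H2afx also gives a message that ends in a stem-loop without a poly(A) tail; the libraries were made from poly(A) RNA and bear on the polyadenylated form.

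Mdc1 (chromosome 17, 35841515 to 35859670, plus strand), the reader of phosphorylated H2AX, had 61.6, 66.9 and 57.4 CPM in SKO libraries, against 40.8, 58.0 and 53.0 CPM in wild type libraries. The lowest SKO library lay just under the highest wild type library. Its log2 fold change was 0.29 (95% interval −0.05 to 0.64; edgeR adjusted p = 0.202). With the GC content and length correction it passed, at 0.46 (adjusted p = 0.0356), and it did not pass with both taken from the longest coding transcript (0.25, adjusted p = 0.23).

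**Figure D2:**
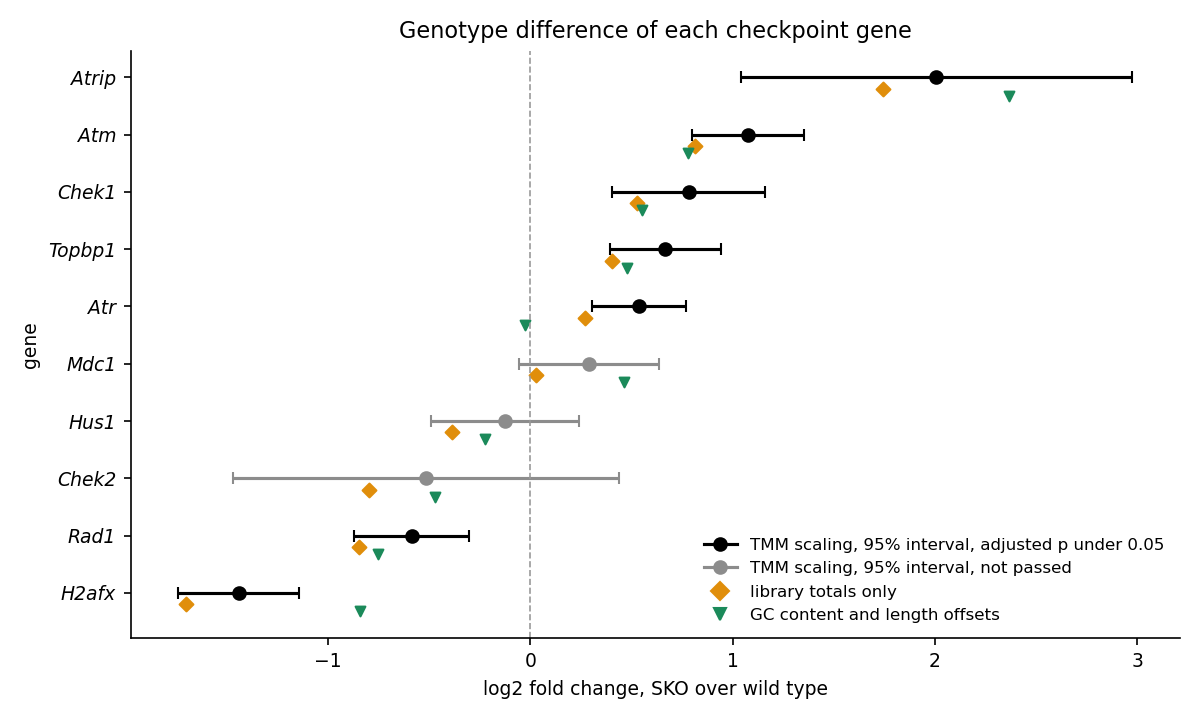
Log2 fold change, SKO over wild type, of each checkpoint gene: circles with 95% intervals from the TMM-scaled fit (black past an adjusted p of 0.05, grey not), diamonds with library totals only and triangles with the GC content and length correction. Atr moves to −0.024 and H2afx to −0.84 under that correction, and the other called genes stay on their side of 0.

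The called checkpoint genes varied in base composition. The 5 higher members had transcript GC contents from 40.8% (Atr) to 54.9% (Atrip), and H2afx had 62.3%, the highest of the 10, while Rad1, the other lower gene, had 43.3%. Among all tested genes the median GC content was 44.6% in those higher in SKO, 52.0% in those lower and 48.7% overall. With the correction for GC content and length, Atm (0.78), Atrip (2.37), Topbp1 (0.48), Chek1 (0.55) and Mdc1 (0.46) passed as higher and H2afx (−0.84) and Rad1 (−0.75) as lower, where 10.9% and 12.2% of all genes did. Thus 5 members were higher and 2 lower with and without it, with Mdc1 in place of Atr. With both properties taken from the longest coding transcript, 4 members were higher (Atm, Atrip, Topbp1 and Chek1) and 2 lower, where 10.4% and 12.1% of all genes were. When libraries were scaled by their totals alone, the median of all genes moved to −0.29, and the same 5 and 2 genes passed, from 0.27 (Atr) to 1.74 (Atrip) and from −1.70 (H2afx) to −0.85 (Rad1), where 7.5% of all genes were higher and 23.5% lower.

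Position was shared by many of the members: 6 of the 10 lie on chromosome 9, including all 5 that rose, and H2afx. Chromosome 9 as a whole had 120 genes higher and 112 lower of 797 tested (15.1% and 14.1%), with a median log2 fold change of −0.05.

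Levels among the 10 genes were compared per kilobase of the longest coding transcript. In SKO spermatocytes the order was Atr (82.5 ± 9.52 CPM per kb; mean ± SD, n = 3), Topbp1 (65.5 ± 5.04), H2afx (37.9 ± 1.82), Chek1 (24.9 ± 1.69), Atm (16.0 ± 0.815), Rad1 (15.2 ± 1.72), Mdc1 (8.44 ± 0.654), Hus1 (8.38 ± 0.934), Atrip (4.49 ± 2.01) and Chek2 (4.16 ± 1.502). The libraries of Atm and Rad1, of Mdc1 and Hus1, and of Atrip and Chek2 overlapped, so those neighbours in the order did not differ beyond their spread. In wild type spermatocytes it was H2afx (103 ± 16.1 CPM per kb; mean ± SD, n = 3), Atr (56.8 ± 4.27), Topbp1 (41.3 ± 7.57), Rad1 (22.9 ± 0.447), Chek1 (14.5 ± 3.84), Hus1 (9.12 ± 1.27), Atm (7.59 ± 1.05), Mdc1 (6.90 ± 1.21), Chek2 (5.92 ± 3.54) and Atrip (1.12 ± 0.547). There Hus1 and Atm, Atm and Mdc1, and Mdc1 and Chek2 overlapped. H2afx thus came below the transcripts of the kinase Atr and its activator Topbp1 in SKO, and above both in wild type. These levels were not corrected for GC content, which was 62.3% for H2afx, 40.8% for Atr and 46.4% for Topbp1. Within single libraries the ratio of Atm to Atr, per kilobase, was 0.209, 0.177 and 0.200 in SKO, against 0.124, 0.135 and 0.141 in wild type, so that Atm stood higher relative to Atr in every SKO library, yet remained well below it in all 6.

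**Figure D3:**
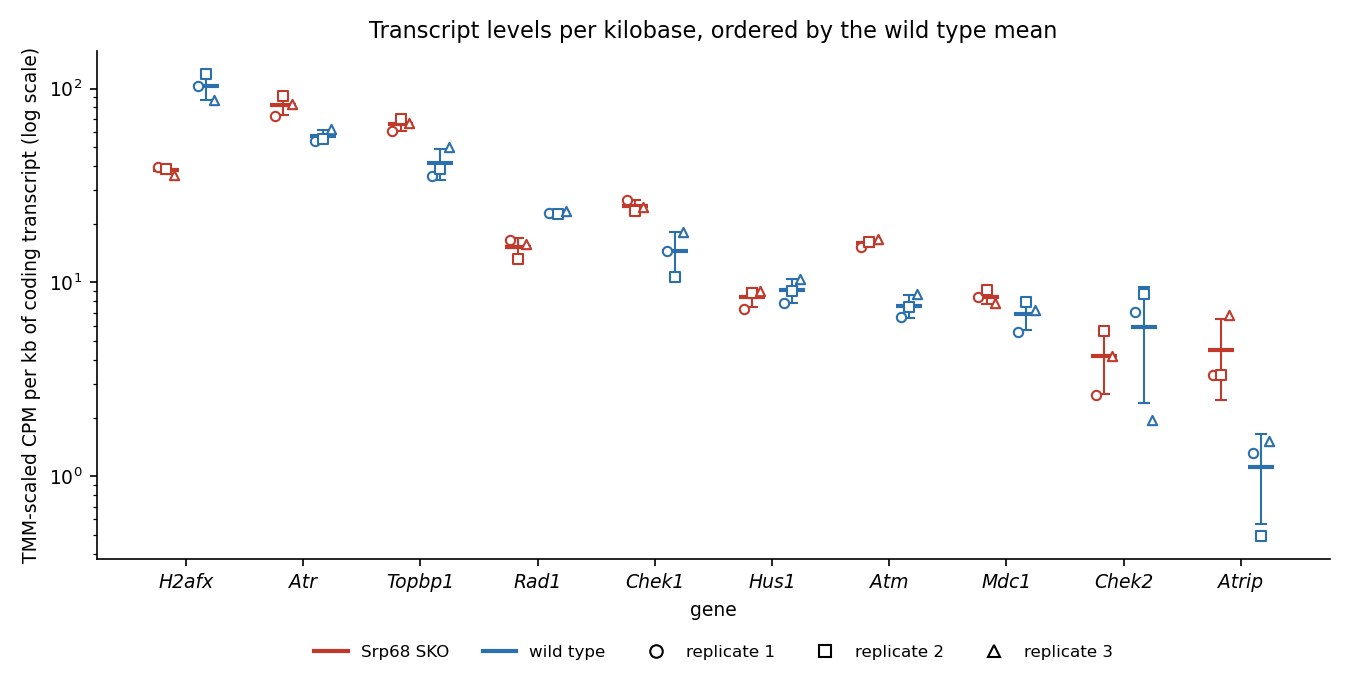
TMM-scaled CPM per kb of the longest coding transcript (log axis) for the 10 genes, ordered by the wild type mean, with SKO in red to the left of wild type in blue; symbols are libraries, and bars are the mean ± SD of 3 libraries. H2afx leads in wild type at 103 CPM per kb, and in SKO it stands at 37.9 CPM per kb, under Atr at 82.5 and Topbp1 at 65.5 CPM per kb. The levels are not corrected for GC content.

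The partners of the pathway moved in both directions. Of 55 tested genes in 6 lists, 11 were higher, 13 lower and 31 not passed, beside 14.1% and 14.4% of all tested genes, with a median log2 fold change of −0.15. The higher partners had a median transcript GC content of 40.8% and the lower ones 52.5%. With the GC content and length correction 5 were higher and 9 lower, beside 10.9% and 12.2% of all genes. With library totals 6 were higher and 20 lower, beside 7.5% and 23.5% of all genes.

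Of 15 tested genes for ATR activation and clamp loading, 5 were higher and 4 lower (median log2 fold change 0.01). Tipin, a partner of TIMELESS at replication forks, rose to 1758 ± 171 CPM in SKO, against 871 ± 64.3 CPM in wild type (log2 fold change 1.01; edgeR adjusted p = 8.81e-06). Timeless itself fell to 11.5 ± 2.17 CPM in SKO, against 20.7 ± 1.14 CPM in wild type (−0.84; edgeR adjusted p = 0.0158). Transcript GC content was 40.8% for Tipin and 54.7% for Timeless. The value of Timeless with the GC content and length correction is not given. Rpa3, the smallest subunit of the single-strand binding protein RPA, rose to 331 ± 58.3 CPM in SKO, against 151 ± 15.5 CPM in wild type (1.13), and had no call with the GC content and length correction (0.24, adjusted p = 0.14). Subunit genes of the clamp loader went opposite ways, Rfc4 rising (800.1 ± 32.9 CPM in SKO and 482 ± 40.5 CPM in wild type) and Rfc2 falling (76.0 ± 11.4 CPM in SKO and 132 ± 21.7 CPM in wild type). Rfc4 shares 12.7% of its exon bases with Eif4a2, and Rfc2 15.1% with Lat2, so both values are uncertain to that extent.

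Of 6 genes for ATM activation and end processing, 1 was higher and 2 lower (median −0.17). The MRN complex that recruits ATM did not pass in any subunit: Mre11a stood at −0.32, Rad50 at 0.18 and Nbn at −0.03. Rbbp8, whose product CtIP starts end resection, rose (306 ± 27.0 CPM in SKO and 181 ± 7.73 CPM in wild type; log2 fold change 0.76). Kat5, an acetyltransferase that activates ATM, fell (7.60 ± 3.48 CPM in SKO and 21.96 ± 5.41 CPM in wild type; −1.52; 12.1% of exon bases shared with Rnaseh2c), and so did Atmin, an ATM cofactor (13.9 ± 3.19 CPM in SKO and 23.3 ± 1.08 CPM in wild type; −0.74). Rbbp8 stood at 0.36 (edgeR adjusted p = 0.0178) and Kat5 at −1.015 (0.0201) with the GC content and length correction. The Atmin call was lost with the GC content and length correction (adjusted p = 0.187) and without SKO replicate 2 (0.0773) or 3 (0.114) or wild type replicate 1 (0.0758) or 2 (0.0665).

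Downstream of H2AX, 3 of 12 genes for ubiquitin signalling and its readers were higher and 1 lower (median 0.01). The ubiquitin ligase genes Rnf8 (−0.41) and Rnf168 (0.01), which act next after MDC1, did not pass. Brca1 rose to 50.4 ± 4.10 CPM in SKO, against 33.1 ± 2.91 CPM in wild type (log2 fold change 0.60; edgeR adjusted p = 0.0106), Rif1 to 389 ± 33.8 CPM in SKO, against 271 ± 28.4 CPM in wild type (0.52), and Brcc3, a deubiquitinase of the BRCA1-A complex, to 50.6 ± 8.44 CPM in SKO, against 25.5 ± 3.54 CPM in wild type (0.99). Babam1, of the same complex, fell to 17.3 ± 5.08 CPM in SKO, against 57.4 ± 14.2 CPM in wild type (−1.73). Brcc3 lies on chromosome X, where 27.5% of tested genes were higher and 3.75% lower. With the GC content and length correction Rif1 (0.09, adjusted p = 0.556) and Brcc3 (0.40, 0.164) had no call and Babam1 stood at −1.14; Brca1 had none with library totals (0.34, 0.123), with offsets from the longest coding transcript (0.40, 0.0744) or without SKO replicate 2 (0.57, 0.0556), and Rif1 none with library totals (0.26, 0.0578).

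Of 10 checkpoint effectors and phosphatases, 0 were higher and 2 lower (median −0.21). Plk1, a mitotic kinase that ends checkpoint arrest, fell (9.34 ± 1.73 CPM in SKO and 28.8 ± 13.2 CPM in wild type; log2 fold change −1.63, and −1.01 with the GC content and length correction), as did Trp53 (5.88 ± 2.58 CPM in SKO and 16.0 ± 4.34 CPM in wild type; −1.44), the gene for p53, whose call was lost with GC content and length of the longest coding transcript (−0.90, adjusted p = 0.0551). Wee1 (0.19), Cdc25a (0.17) and the p53 target Cdkn1a (−0.01) did not pass. Of 9 related kinases and assembly factors, 1 was higher and 3 lower (median −0.50). Smg1, a kinase of nonsense-mediated decay, rose (0.44), while Tti2 (−1.15; 14.6% of exon bases shared with Mak16) and the ATPase genes Ruvbl1 (−0.50) and Ruvbl2 (−1.04; 15.4% shared with Gys1 and Lhb), which help assemble kinases of the ATM family, fell. Smg1, Ruvbl1 and Ruvbl2 had no call with the GC content and length correction (0.0014, −0.20 and −0.36), nor Smg1 with library totals (0.18). Among the genes of the axis proteins HORMAD1 and HORMAD2 and of TRIP13, the ATPase that takes them off axes (3 genes, median 0.05), Hormad1, needed to recruit ATR to unsynapsed axes, rose to 5109 ± 731 CPM in SKO, against 3059 ± 447 CPM in wild type (0.74), Trip13 fell (−0.38; edgeR adjusted p = 0.0453) and Hormad2 stood at 0.05. Hormad1 had no call with that correction (0.03, adjusted p = 0.836), and the Trip13 call was lost under 8 of 18 alternatives.

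**Figure D4:**
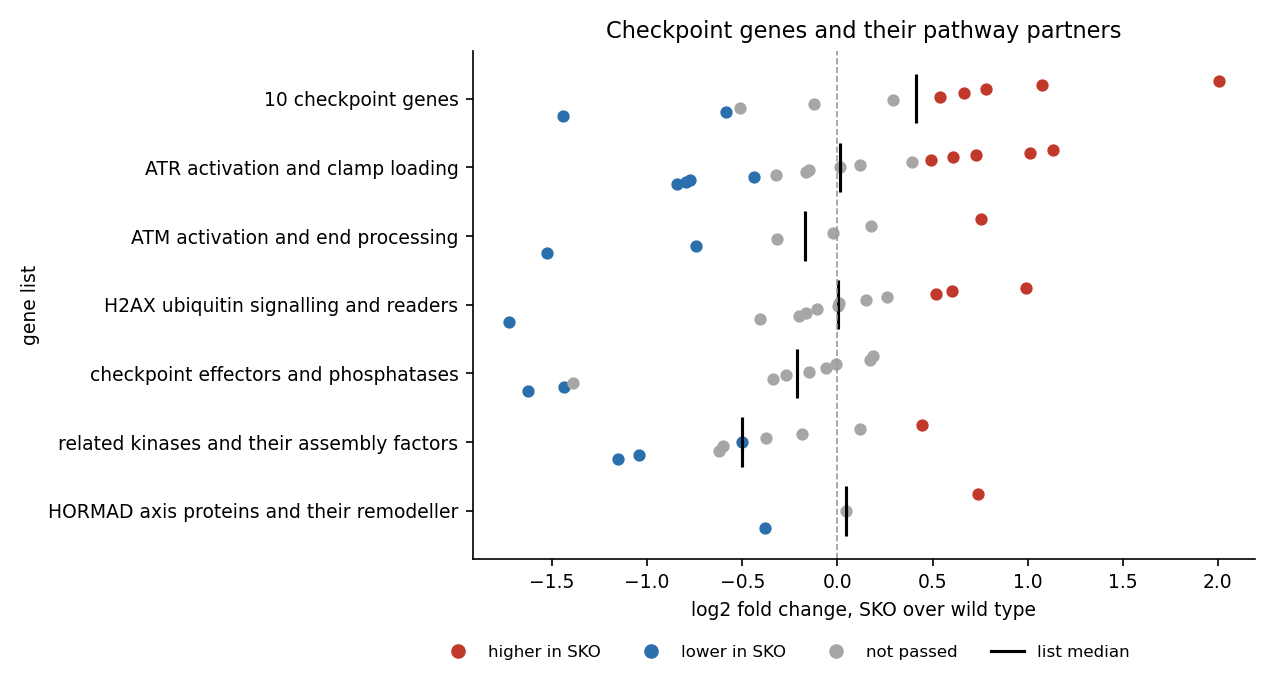
Log2 fold change, SKO over wild type, of the 10 checkpoint genes and of the tested genes in 6 partner lists; each point is a gene, red for higher, blue for lower and grey for not passed, and black bars are list medians. The bar stands at 0.41 for the 10 genes and between −0.50 and 0.05 for the partner lists. All values come from the TMM-scaled fit without the GC content and length correction, under which Atr moves to −0.024. Medians with that correction are not given.

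The genes whose profile over the 6 libraries was nearest to that of H2afx, by root mean square distance of log2 CPM centred on each gene's mean, were Sdf4 (0.0744), Tmem248 (0.0869) and Smn1 (0.0899). Those nearest to Atm were Rpl22 (0.0339), Ssb (0.0448) and Adam10 (0.0535), among 13473 genes compared. None of these 6 genes belongs to the lists above.

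X-linked genes, the later targets of silencing by this pathway, were read as a group. Of 614 tested, 169 were higher (27.5%) and 23 lower (3.75%), beside 14.1% and 14.4% of all tested genes, with a median log2 fold change of 0.39. With the GC content and length correction 19.1% were higher and 5.54% lower, beside 10.9% and 12.2% of all genes. With library totals 101 were higher (16.4%) and 52 lower (8.47%), beside 7.5% and 23.5% of all genes. In the TMM-scaled test 14 were lower without SKO replicate 2 and 15 without wild type replicate 1.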

How the data were processed

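Poly(A) RNA of 6 libraries was profiled by Smart-seq2. The authors deposited a table of whole-number read counts for each gene, not normalized, with 1 column per library; columns named CKO were matched to the samples labelled SKO by genotype and replicate number. The submitters' processing notes name FastQC, Trim Galore 0.6.4, HISAT2 2.0.5 and the builds GRCm38 and mm10. Counting tool, strand setting and annotation: not given in the sources used here; no kit is stated to mark strand. GENCODE vM21 (GRCm38) supplied symbols, positions and lengths for 49325 of 49584 identifiers.

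The test was run with edgeR 4.0.16 in R 4.3.3: filterByExpr, TMM scaling, and a two-sided quasi-likelihood test of genotype with Benjamini-Hochberg adjustment over 13474 genes (threshold 0.05; biological coefficient of variation 0.304). Fold changes are SKO over wild type. The procedure was also run on simulated counts, with genes changed equally often up and down and no trend on GC content or length. That simulation does not bear on the GC content and length correction. The reads have no molecular identifiers, and floors of 3 counts therefore cover counting error alone. No 2 libraries of a genotype agreed within sampling noise (chi-square over degrees of freedom 12.0 to 22.2). The members, gene lists and alternatives were chosen with earlier results of these data known. Genes named are Srp68, the 10 members, up to 4 called genes of each partner list by smallest p, and the 3 genes nearest in profile to each of the 2 members with the smallest p; other partners, and single cell type markers, were named after their values were seen. Alternatives were other scalings and filters, robust fitting, DESeq2 1.42.0, limma-voom (limma 3.58.1), a replicate block, loess offsets (span 0.3) for GC content and exon length, and each library left out in turn; offsets with transcript lengths were added after the data were seen.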

Additional observations from a re-analysis of the deposited data

How the results depend on the processing

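Of the 10 checkpoint genes, 8 kept their direction and their side of the threshold under all 18 alternatives, and all 10 did so when each library was left out in turn. The exceptions were Atr, at −0.024 with GC content and length offsets, −0.025 with these and a replicate block, and 0.04 with offsets from the longest coding transcript, and Mdc1, which passed with the first 2 of these. Rif1 stood at −0.060 with offsets from the longest coding transcript. The cause was not tested. With library totals only, 1010 genes in all were higher and 3168 lower, 6 partner genes higher and 20 lower, and 101 X-linked genes higher and 52 lower. Partner genes called higher numbered 5 with GC content and length offsets, 5 with these and a replicate block, and 7 with offsets from the longest coding transcript, with which 8 were lower. X-linked genes called lower ranged from 14 (without SKO replicate 2) to 28 as each library was left out. With a replicate block, 1976 genes were higher and 1991 lower, and 5 and 2 checkpoint genes. The labels do not say whether same-numbered libraries were paired. Their deviations from the group means correlated at 0.02, −0.05 and 0.04, and those of differently numbered libraries at −0.099 to 0.084. Deviations from means of so few libraries cannot settle whether the libraries were paired. Atrip and Chek2, with the fewest counts of the 10, had the widest intervals.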
